A study of Mus musculus with 4 samples.

Results

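Interferon-high endothelial cells are kidney endothelial cells with many transcripts of Isg15, Ifit1, Ifit3 and Rsad2. An endothelial cell was a barcode with at least 3 UMIs, and at least 12 per 10000 UMIs, of Pecam1, Cdh5, Kdr and Tie1 together. A UMI (unique molecular identifier) stands for 1 captured transcript. An endothelial cell was called interferon-high when the 4 interferon genes together had at least 4 UMIs and at least 10 per 10000. The rule found 1724 interferon-high cells among 2885 endothelial cells and 10535 cells in all. The remaining 1161 endothelial cells are the cells they were set against, always within the same deposited table. The cells were chosen by their measured UMI counts of these 8 genes, so the contrast is described without a test, and the 4 interferon genes and the 4 endothelial genes were left out of every gene count.

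The cells came from kidneys of C57BL/6J mice aged 10 to 14 weeks, in 4 groups named A2 HTN, A2 Ctrl, SS HTN and SS Ctrl. A2 HTN mice had hypertension induced with the pressor hormone angiotensin II, and A2 Ctrl mice received saline. SS HTN mice had salt-sensitive hypertension, and SS Ctrl mice ate a normal diet. All kidneys of a group were pooled before dissociation, and cells were selected with beads carrying antibodies to CD31 (the product of Pecam1) and then to podoplanin, a protein of lymphatic endothelium. Each group was 1 droplet library made from transcript 3′ ends, so there were no replicates and intervals cover counting error only. The control libraries shared 1 table, in which barcode endings part control library 1 from control library 2, and the sources used here do not say which model each belongs to. The libraries held between 1727731 and 7479337 UMIs, and no pair shared more than 2 cell barcodes. The selection was aimed at lymphatic cells, yet Prox1, the defining lymphatic transcription factor, had a UMI in 0.852% of angiotensin II and 0.562% of salt-sensitive interferon-high cells. It had none in the 73 control interferon-high cells, where a count of 0 allows up to 4.11% of cells with a UMI.

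Type I interferons are secreted proteins that bind the receptor Ifnar1 and Ifnar2 on almost every cell. The receptor's kinases activate transcription factors that, together with Irf9, bind interferon-stimulated response elements in the promoters of many antiviral genes. Interferon-gamma acts through a different promoter site, GAS, and is known for inducing large GTPases and MHC genes in endothelium. Isg15 is a ubiquitin-like protein attached to other proteins, Ifit1 and Ifit3 bind foreign RNA, and Rsad2 (viperin) makes a nucleotide that stops viral RNA synthesis.

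Matches to the interferon-stimulated response element near the start sites of 5 genes named below are shown because these genes carry the pattern that the cells share beyond the rule. The sequences are from RefSeq promoters on GRCm38.p6, on the strand of the gene, 5′ to 3′, and capitals mark the ISRE-type motif: GAAA, any 2 bases, GAAA, or on the other strand TTTC, any 2 bases, TTTC.
Ifit3b (chr19:34607744-34607803, plus strand): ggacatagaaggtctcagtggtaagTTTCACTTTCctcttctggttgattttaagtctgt
Oas1a (chr5:120907526-120907570, minus strand): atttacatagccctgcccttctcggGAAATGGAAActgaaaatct
Ifi206 (chr1:173491324-173491383, minus strand): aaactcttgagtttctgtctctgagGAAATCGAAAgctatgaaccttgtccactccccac
Ifi211 (chr1:173913049-173913108, minus strand): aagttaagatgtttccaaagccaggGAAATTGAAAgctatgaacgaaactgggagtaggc
Gbp7 (chr3:142530258-142530317, plus strand): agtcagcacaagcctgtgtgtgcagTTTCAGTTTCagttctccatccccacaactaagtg
The match in capitals lay 178, 10, 30, 27 and 43 bases before the start site in Ifit3b, Oas1a, Ifi206, Ifi211 and Gbp7. Not in capitals are a further match in Oas1a, which overlaps the marked match and lay 4 bases before the start site, and a further match in Ifit3b, 144 bases before it. Both strands were searched from 250 bases before to 50 bases after each start site, and matches may overlap. Of the 8868 genes measured in the angiotensin II table that had a promoter entry, 327 (3.69%) held the motif. Of the 20 genes named below as higher in interferon-high cells, 16 had an entry and 6 of them (37.5%) held it. It was found for 8 of 16 antiviral effectors and 9 of 10 interferon-gamma-induced GTPases with an entry. The GAS-type motif TTCNNNGAA was found for 724 of the 8868 genes (8.16%) for 6 of those 10 GTPases, for 7 of the 16 antiviral effectors and for 3 of the 16 named genes. A match says only that these letters occur there.

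Interferon-high cells were the majority of endothelial cells in the angiotensin II library and about every other one in the salt-sensitive and summed control tables. They were 939 of 1223 endothelial cells in the angiotensin II library (76.8%, with a 95% interval of 74.3 to 79.1 from the exact binomial). They were 712 of 1517 in the salt-sensitive library (46.9%, 44.4 to 49.5) and 73 of 145 in the control table (50.3%, 41.9 to 58.7). Control library 2 gave 70 of the 73, with a share of 55.6% (46.4 to 64.4), and control library 1 gave 3 of 19 (15.8%, 3.38 to 39.6). Among barcodes outside the endothelial gate, 1.61%, 2.60% and 0.164% passed the interferon rule in the angiotensin II, salt-sensitive and control tables. Those barcodes were shallower, with medians of 863, 1005 and 747 UMIs, against 4915, 2453.5 and 3006 in interferon-high cells. The other endothelial cells had medians of 3928.5, 2297 and 2281.5 UMIs.

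**Figure D1:**
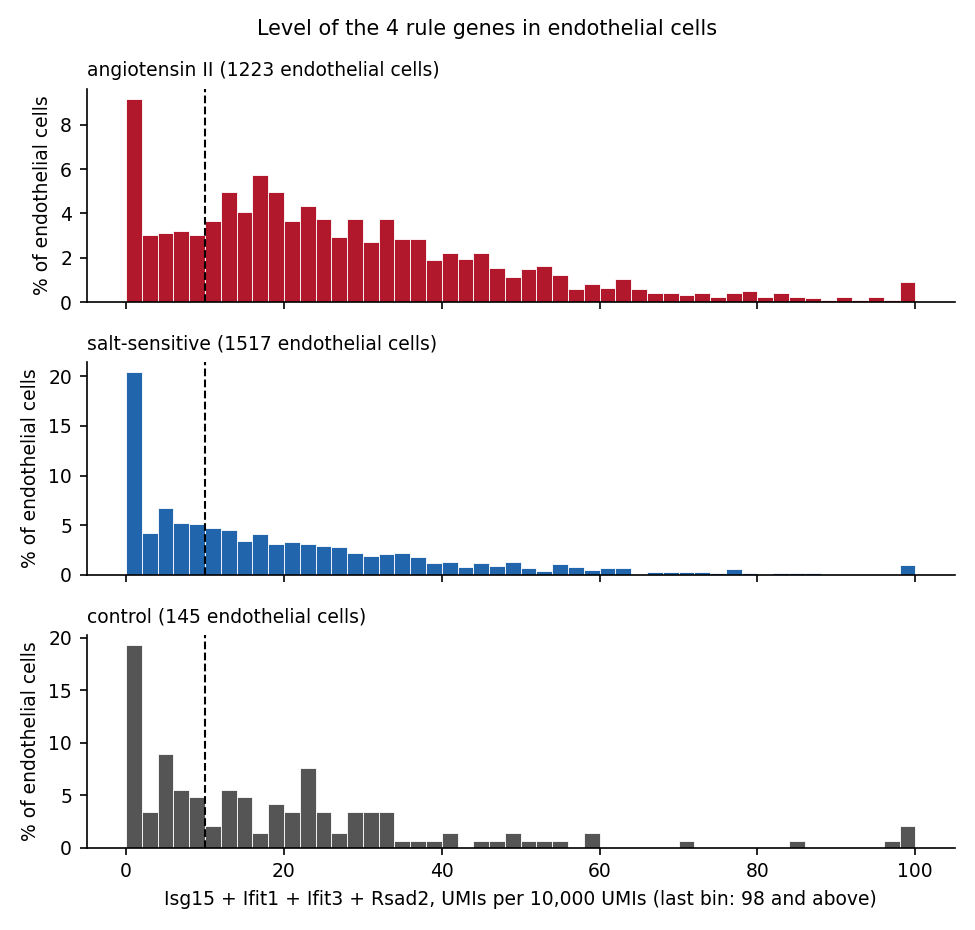
Level of the 4 rule genes together (x axis, UMIs per 10,000 UMIs of a cell) in all endothelial cells of each table, as the percentage of cells in bins 2 units wide (y axis). The dashed line is the threshold of 10. No gap parts the cells at the threshold in any table, and the lowest bin holds 9.16%, 20.4% and 19.3% of the cells from the top to the bottom panel.

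The level of the 4 genes showed no gap at the threshold. Counting error at these depths could hide a gap, so whether the range is continuous was not tested. Over all endothelial cells the median level of the 4 genes was 22.6, 13.5 and 14.0 per 10000 in the angiotensin II, salt-sensitive and control tables. Within interferon-high cells the medians were 29.3, 30.3 and 25.7. The rule cuts these cells off at 10 per 10000 and 4 UMIs, so the closeness of the medians is no result about the cells. Just inside the threshold, 37, 21 and 1 members of the 3 tables lay under 12 per 10000, and 22, 104 and 7 members had exactly 4 UMIs. Just outside it, 27, 7 and 0 cells with enough UMIs lay between 8 and 10 per 10000, and 8, 105 and 8 cells had the level but only 3 UMIs.

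Rsad2 carried most of the rule. It gave 74.1%, 72.2% and 77.2% of the 4 genes' UMIs in interferon-high cells, and it was found in 99.7%, 98.9% and 100% of them. Isg15 was found in 51.3%, 46.1% and 35.6%. Rsad2 alone, with no UMI of the other 3 genes, admitted 245 angiotensin II, 276 salt-sensitive and 31 control cells, which is 26.1%, 38.8% and 42.5% of the members. Leaving Rsad2 out of the rule left 261, 176 and 12 cells, or 21.3%, 11.6% and 8.28% of endothelial cells, all of them inside the original set.

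The shares also differed with depth. Among cells with 2000 to 4000 UMIs the shares were 73.4%, 53.4% and 57.0%. When each cell was thinned to 2000 UMIs and 2 UMIs of the 4 genes were asked for, they were 81.2% in the angiotensin II library (78.9 to 83.5, 1141 cells), 64.7% in the salt-sensitive library (61.7 to 67.6, 1043 cells) and 70.9% in the control table (61.8 to 79.0, 117 cells). This left out 82, 474 and 28 shallower cells. The same cells unthinned under the original rule gave 81.1%, 51.1% and 57.3%.

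The share depended on which kidney vessel the cell's markers pointed to. Cells were assigned to a marker list when they had at least 3 UMIs of it and at least 2 times as many as of each of the other 4 vessel lists, which marks a leaning and not a cell type. Of cells leaning to peritubular capillary markers (Igfbp3, Npr3, Esm1, Gpihbp1, Plvap), the vessels around the tubules, 691 of 789 (87.6%, 85.1 to 89.8) were interferon-high in the angiotensin II library. The salt-sensitive share was 378 of 566 (66.8%, 62.7 to 70.7), and the control share was 57 of 79 (72.2%, 60.9 to 81.7). Of cells leaning to glomerular markers, such as Ehd3 and Plat, 1 of 28, 4 of 108 and 2 of 13 were interferon-high. Arterial leaning cells gave 7 of 28 and 12 of 96 in the hypertension libraries, and medullary leaning cells gave 16 of 36, 64 of 157 and 2 of 11. In both hypertension libraries the capillary interval lay above the glomerular, arterial and medullary intervals. In the control table it lay above the glomerular and medullary ones.

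**Figure D2:**
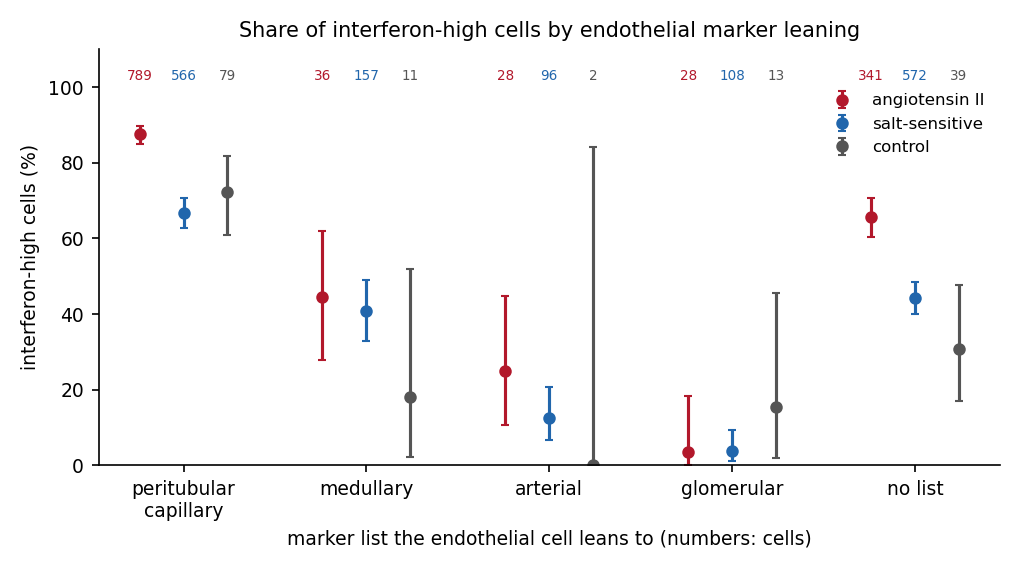
Share of interferon-high cells (y axis, percent) among endothelial cells leaning to each marker list (x axis), per table, with exact binomial 95% intervals; the number of cells stands above each point, and the venous list (1, 18 and 1 cells) is not drawn. Capillary leaning cells have the highest share in every table and glomerular leaning cells in the hypertension libraries have shares of 3.57% and 3.70%.

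Capillary leaning cells were 64.5%, 37.3% and 54.5% of the endothelial cells of the 3 tables, in the same order. Within them, thinned to 2000 UMIs, interferon-high shares were 89.2% (86.8 to 91.3, 760 cells), 87.1% (83.4 to 90.3, 381 cells) and 80.6% (69.5 to 88.9, 72 cells). The intervals of the hypertension libraries overlapped there, but the same cells unthinned under the original rule gave 89.6%, 74.0% and 75%. With Rsad2 left out as well, the thinned shares were 31.3% (28.0 to 34.7), 25.7% (21.4 to 30.4) and 18.1% (9.98 to 28.9). Unthinned, with Rsad2 left out, they were 24.7% (21.7 to 27.9), 13.6% (10.9 to 16.7) and 10.1% (4.47 to 19.0), where the hypertension intervals did not overlap.

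Capillary markers were accordingly higher in interferon-high cells. Esm1, an endothelial proteoglycan, stood at 1787 CPM (UMIs per 1000000 UMIs of the summed cells) against 1074 in the other cells of the angiotensin II library. Its salt-sensitive levels were 1321 against 540 CPM, and its control levels were 2483 against 530 CPM. Plvap, which forms the diaphragms of fenestrated capillaries, stood at 3021 against 2101, 1912 against 915 and 2885 against 1603 CPM. The 5 capillary markers summed to 8229, 5172 and 8705 CPM in interferon-high and to 5473, 2479 and 3658 CPM in other cells. Glomerular markers summed to 694, 741 and 1024 against 1849, 2240 and 2329 CPM, and arterial markers to 1115, 1453 and 888 against 2901, 3377 and 1225 CPM. The vessel makeup of the 2 sets thus differed in every table, and values within capillary leaning cells are set beside the ratios below.

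Across all genes, few were higher in interferon-high cells by the fold used here. That fold is a log2 ratio of CPM + 5 of at least 1, or at most -1 for lower genes, among genes with 20 or more UMIs over both sets of cells. The added 5 CPM understates the ratio of low genes, and the 95% intervals are those of the plain ratio. In the angiotensin II library 59 of 11267 genes (0.524%) were past it upward and 491 (4.36%) downward. In the salt-sensitive library 69 of 10953 (0.63%) and 265 (2.42%) were, and among control cells 165 of 4194 (3.93%) and 320 (7.63%). Among capillary leaning cells 253 of 10376 (2.44%), 128 of 8166 (1.57%) and 200 of 2484 (8.05%) were past it upward in the 3 tables, and 128 control genes (5.15%) were past it downward. The control sums were 213894 and 164038 UMIs, against 1047903 or more for each set of a hypertension library, so control ratios are the least certain.

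Of the genes past the fold upward in both hypertension libraries, with intervals above 0, the 20 with the largest smaller ratio are described here, out of 26. Of these 20, 13 were on a list of interferon-induced genes. Within capillary leaning cells, 20 had a ratio above 0 and 10 were past the fold in the angiotensin II library. The salt-sensitive numbers were 19 and 4, and Ifit3b, Oasl1, Gbp6 and Apol9b were past the fold there in both. Of all genes measured in these cells, 48.0% and 50.3% had a ratio above 0, and 2.44% and 1.57% were past the fold upward. Capillary leaning cells were 73.6% and 53.1% of the interferon-high cells in which the 20 were chosen. These counts are thus in part set by that choice. Positions of the 20 genes are on GRCm38.

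Among antiviral effectors, Ifit2 (chr19:34550694-34576419), an RNA-binding relative of Ifit1, led. It stood at 172 against 39.1 CPM in angiotensin II cells (log2 ratio 2.0, 1.68 to 2.62), at 138 against 36.0 in salt-sensitive cells (1.80, 1.56 to 2.33) and at 136 against 42.7 in control cells (1.56, 0.45 to 3.10). It was found in 40.3%, 24% and 19.2% of interferon-high and in 11.6%, 7.95% and 9.72% of other cells. Within capillary leaning cells the log2 ratios were 1.42, 0.88 and 1.0.

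Oas1a, Oasl1 and Oasl2 belong to the oligoadenylate synthetase family, whose active members trigger RNA decay. Oas1a stood at 65.5 against 19.1 CPM in angiotensin II (log2 ratio 1.55) and 53.0 against 20.2 in salt-sensitive cells (1.21). Oasl1 stood at 43.5 against 12.4 and 36.9 against 5.28 CPM, and Oasl2 at 169 against 74.4 and 131 against 58.6 CPM. Their capillary leaning log2 ratios were 1.68 and 0.80 for Oas1a, 1.37 and 1.72 for Oasl1, and 1.16 and 0.74 for Oasl2. Ifit3b, at 92.4 against 23.9 and 64.5 against 13.4 CPM (1.51 and 2.44 in capillary leaning cells), is a near-identical copy of the rule gene Ifit3, and the sources used here do not say how reads matching several copies were counted. The same holds for the Oasl pair, Apol9b, Slfn3, Gbp6, H2-T22 and the Ifi204, Ifi206 and Ifi211 family.

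Cmpk2 (chr12:26469204-26479837), a nucleotide kinase that supplies the substrate of viperin, is the neighbour of Rsad2 (chr12:26442746-26456452). It stood at 225 against 95.4 CPM in angiotensin II cells (log2 ratio 1.20, 0.94 to 1.55), 265 against 80.2 in salt-sensitive cells (1.66, 1.47 to 1.98) and 243 against 122 in control cells (0.97, 0.23 to 1.82). Its log2 ratios within capillary leaning cells were short of the fold, at 0.38, 0.88 and 0.80. Cmpk2 was higher in all 3 tables.

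The DNA sensor family gave Ifi204, Ifi206 and Ifi211, whose products bind DNA in the nucleus or cytoplasm. Ifi204 stood at 73.0 against 30.5 and 63.9 against 21.6 CPM in the hypertension libraries, Ifi206 at 27.9 against 7.63 and 32.7 against 8.16, and Ifi211 at 48.2 against 18.1 and 41.6 against 14.9. Zbp1, a sensor of Z-form nucleic acid that can start cell death, stood at 78.1 against 32.4 and 46.8 against 12.5 CPM. Each of these 4 genes was past the fold in both hypertension libraries, with log2 ratios from 1.13 to 1.57. Capillary leaning ratios were lower, at 0.58 and 0.52 for Ifi204, 1.15 and 1.0 for Ifi206, 0.82 and 0.84 for Ifi211, and 0.85 and 0.97 for Zbp1.

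AW112010, annotated as a noncoding transcript and known as interferon-induced, was the most abundant of the 20. It stood at 499 against 217, 421 against 157 and 622 against 207 CPM in the angiotensin II, salt-sensitive and control tables. Its capillary leaning ratios were 0.40, 0.32 and 0.58. Apol9b, an apolipoprotein L, stood at 72.6 against 27.7 and 75.9 against 17.8 CPM, and Slfn3, a Schlafen family member, at 63.5 against 23.9 and 68.1 against 23 CPM. Their capillary leaning ratios were 1.17 and 1.61 for Apol9b and 0.53 and 0.89 for Slfn3.

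Of the 20, 4 genes have no interferon role known from their names. Chchd10, a mitochondrial protein, stood at 287 against 125 and 148 against 62.4 CPM in the hypertension libraries, but at 103 against 146 in the control table. Nav3, a microtubule-associated protein, stood at 67.9 against 24.8 and 33.8 against 13.0 CPM. Within salt-sensitive capillary leaning cells the log2 ratio was -0.01 for Chchd10 and 0.05 for Nav3. Gm34455 and Gm12002 are uncharacterised transcripts, and Gm12002 is annotated as antisense, so without strand information its reads cannot be told from those of its partner. Gm12002 stood at 221 against 99.3 and 188 against 64.3 CPM, and within capillary leaning cells its log2 ratios were 0.09 and 0.03.

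The interferon-gamma-induced GTPases, which attack the membranes around intracellular microbes, were the list with the highest median among the interferon lists in both hypertension libraries. All 15 measured members had a ratio above 0 in angiotensin II (median log2 ratio 0.91, 6 past the fold) and salt-sensitive cells (1.15, 9 past the fold), as did all 10 among control cells (0.85, 5 past the fold). Over all genes measured the medians were -0.06, -0.06 and -0.02. Of all genes, 41.9%, 40.9% and 49.0% had a ratio above 0, and 0.524%, 0.63% and 3.93% were past the fold upward. Within capillary leaning cells the list's medians were 0.93, 0.92 and 1.20.

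Gbp7, a guanylate-binding protein whose motif match is shown above, stood at 276 against 116 CPM in angiotensin II cells (log2 ratio 1.22, 0.98 to 1.54) and 278 against 105 in salt-sensitive cells (1.36, 1.17 to 1.64). In the control table it stood at 201 against 146 (0.45, -0.29 to 1.24). Gbp6, another such protein, stood at 50.4 against 16.2 and 34.3 against 11 CPM in the hypertension libraries. Igtp, an immunity-related GTPase, stood at 93.9 against 38.2, 54.1 against 26.4 and 112 against 18.3 CPM in the 3 tables. Ifi47 of the same family stood at 119 against 51.5, 85.8 against 33.6 and 93.5 against 30.5 CPM. The capillary leaning ratios in the hypertension libraries were 1.13 and 0.92 for Gbp7, 1.46 and 1.79 for Gbp6, 0.85 and 1.14 for Igtp, and 0.97 and 0.50 for Ifi47. The control counts behind Igtp were 24 and 3 UMIs, with a log2 ratio of 2.33 (0.90 to 4.99).

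**Figure D3:**
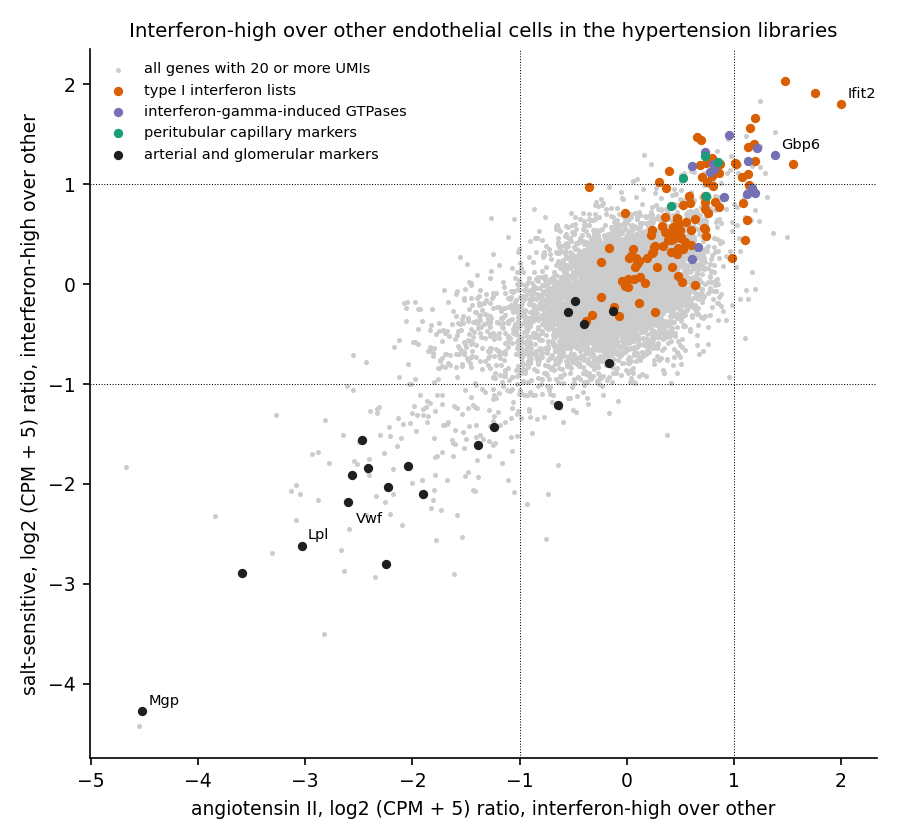
Log2 ratio of CPM + 5 of interferon-high over other endothelial cells for each gene with 20 or more UMIs, in the angiotensin II (x axis) and salt-sensitive library (y axis); dotted lines mark the fold of 1. Interferon genes and GTPases lie to the upper right, with Ifit2 at 2.0 and 1.80, and arterial and glomerular markers to the lower left, with Mgp at -4.52 and -4.27.

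Type I interferon-stimulated genes outside the rule were higher as a group by a moderate amount. Sensors, signalling genes, feedback inhibitors, ISG15 conjugation enzymes, antiviral effectors and other stimulated genes were joined into 1 list of 126 genes. In the angiotensin II library 99 of 111 measured members had a ratio above 0 (median 0.48) and 17 were past the fold upward. In the salt-sensitive library these values were 97 of 107, 0.54 and 25, and among control cells 57 of 68, 0.59 and 12. Of all genes measured, 41.9%, 40.9% and 49.0% had a ratio above 0, and the shares past the fold upward were the 0.524%, 0.63% and 3.93% given above. Within capillary leaning cells the medians were 0.37, 0.34 and 0.47. The parts of the joined list were not alike. Over all endothelial cells sensors had medians of 0.59, 0.65 and -0.30, and feedback inhibitors 0.12, -0.02 and -0.24. Only 3 sensors and 2 inhibitors were measured among control cells. These lists were chosen with results of these data known and are no independent evidence of a direction.

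Upstream in the pathway most differences were below the fold. The 18, 17 and 14 receptor, kinase and transcription factor genes measured in the 3 tables had median log2 ratios of 0.22, 0.30 and 0.50. Of these, 0, 2 and 2 were past the fold upward, against 0.524%, 0.63% and 3.93% of all genes. The highest ratios were 0.80, 1.26 and 1.35. The receptor genes Ifnar1 (148 against 105 CPM, log2 ratio 0.47) and Ifnar2 (556 against 421 CPM, 0.40) were below the fold under angiotensin II, and their salt-sensitive ratios were 0.30 and 0.49. Jak1, a kinase of the receptor, had log2 ratios of 0.09, 0.20 and -0.20 in the 3 tables. Stat2 had 0.58, 0.88 and 0.75, and Irf9 had 0.73, 0.82 and 0.65. Irf7, which sustains interferon production, stood at 232 against 131, 173 against 69.1 and 178 against 79.2 CPM. It was past the fold in the salt-sensitive and control tables, while its capillary leaning ratios were 0.59, 0.41 and 0.21. The RNA sensors Ddx58 (RIG-I) and Ifih1 (MDA5) had log2 ratios of 0.64 and 0.59 in angiotensin II, and 0.65 and 0.81 in salt-sensitive cells. In the control table, on 43 and 27 UMIs, they had -0.30 and -0.06, with intervals across 0. The interferon genes themselves, 9 of them sought, are not analysed here, since no table used lists them.

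Among feedback inhibitors, Usp18, which removes ISG15 and blocks the receptor, stood at 76.7 against 35.3, 72.8 against 28.8 and 65.5 against 24.4 CPM (log2 ratios 1.02, 1.20 and 1.26, the last on 14 and 4 UMIs with an interval across 0; 1.28 and 0.60 in capillary leaning cells of the hypertension libraries). Socs3, an inhibitor of cytokine receptor signalling, had ratios of -0.38 and -0.37 in the hypertension libraries, with intervals across 0. Of the ISG15 conjugation enzymes, Herc6, the ligase in mice, stood at 161 against 85.9, 177 against 73.9 and 145 against 85.3 CPM. Uba7, the activating enzyme, had ratios of 0.06 and 0.35 in the hypertension libraries. Bst2 (tetherin, which holds budding virus at the membrane) was abundant in all cells, at 1167 against 841, 1377 against 871 and 1239 against 744 CPM.

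Antigen presentation genes followed with smaller ratios. Of 24 MHC class I presentation genes measured, 21 and 22 had a ratio above 0 in the hypertension libraries, against 41.9% and 40.9% of all genes. Their medians were 0.43 and 0.40, with none past the fold. Among control cells 21 of 23 had a ratio above 0 (median 0.84, 4 past the fold). There 49.0% of all genes had a ratio above 0 and 3.93% were past the fold. Psmb8, a subunit of the immunoproteasome, stood at 622 against 368, 452 against 265 and 627 against 347 CPM. The class I medians within capillary leaning cells were 0.19, 0.11 and 0.47.

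Class II genes, which present antigen to helper T cells and are carried by macrophages too, were also higher in part. Ratios above 0 were found for all 8 measured in angiotensin II cells, for 5 of 8 in salt-sensitive cells and for all 4 in control cells. Of all genes, 41.9%, 40.9% and 49.0% had a ratio above 0. The class II medians were 0.57, 0.79 and 1.43, and within capillary leaning cells 0.39, -0.08 and 0.77. Cd74, the class II invariant chain, stood at 470 against 213 CPM in angiotensin II, 191 against 97.0 in salt-sensitive and 243 against 73.1 in control cells. Its capillary leaning ratios were 0.64, 0.19 and 0.94. The leukocyte marker list had 7, 6 and 12 of 20 members in the 3 tables. It summed to 34.1 against 36.3, 26.5 against 23.5 and 51.4 against 24.4 CPM, and its pan-leukocyte member Ptprc had 4, 1 and 1 UMIs in interferon-high and 3, 7 and 1 in other cells. The log2 ratios of these sums were -0.08 (-0.61 to 0.46), 0.14 (-0.42 to 0.77) and 0.94 (-0.68 to 3.18). The part of leukocyte RNA in the class II ratios was not tested in any table.

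Inflammatory genes outside the interferon pathway differed by list. Of 15 chemokine genes sought, only Cxcl12, Cx3cl1 and Cxcl16 were measured in the hypertension libraries, and Cxcl12 is also on the arterial marker list. All 3 had ratios below 0 in both libraries (medians -1.02 and -1.27). In each library 2 were past the fold downward, against 4.36% and 2.42% of all genes. Among capillary leaning cells the chemokine medians were 0.17 over 3 genes and 0.13 for the 1 gene measured. The NF-kB response list had medians of -0.06, -0.12 and 0.23 with 13, 13 and 6 members measured. Of these, 0, 0 and 1 were past the fold upward, against 0.524%, 0.63% and 3.93% of all genes. Nfkbia, the feedback inhibitor of NF-kB, had log2 ratios of 0.14, -0.12 and 0.21, with intervals across 0. Icam1, a leukocyte adhesion molecule, had -0.06, 0.03 and -0.78. Vcam1, another, had -1.17 and -1.79 in the hypertension libraries. Its control value of -2.55 rested on fewer than 20 UMIs, the minimum used here. Adhesion genes measured among capillary leaning cells went no lower than -0.35 under angiotensin II (8 genes) and -1.18 in salt-sensitive cells (7 genes). These lowest values belong to genes other than Vcam1. On the venous marker list, which holds Vcam1, the lowest ratios measured in these cells were -0.05 and -0.12. In salt-sensitive capillary leaning cells 1 adhesion gene was past the fold downward, against 0.71% of all genes. The 35 nuclear oxidative phosphorylation genes had medians of -0.03, -0.01 and 0.32.

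Several of the genes lowest in interferon-high cells are known from arteries, glomeruli or larger vessels, and 3 of the 10 named here are on the arterial or glomerular marker lists. Of 164 genes past the fold downward in both hypertension libraries with intervals below 0, the 10 with the widest smaller difference were Gm37350, Mgp, Clu, Cytl1, Pde3a, Htra1, Stmn2, Lpl, Vwf and Fn1. Mgp, a matrix protein that inhibits calcification of arteries, stood at 33.9 against 889, 39.5 against 854 and 4.68 against 195 CPM, the last on 1 and 32 UMIs (log2 ratio -4.37, -10.7 to -2.80). Clu, a secreted chaperone on the arterial marker list, stood at 7.04 against 140 and 15.6 against 148 CPM. Lpl, a lipase in the list of glomerular markers, stood at 5.06 against 77.3, 19.8 against 147 and 32.7 against 226 CPM.

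Vwf, the clotting adhesion protein of large vessels, stood at 1.54 against 34.4 and 24.9 against 159 CPM, and Fn1, fibronectin, at 6.38 against 91.6 and 7.80 against 60.5 CPM. Cxcl12, a chemokine of arterial endothelium, stood at 16.1 against 73.5 and 35.3 against 169 CPM. Within angiotensin II capillary leaning cells the log2 ratio was -0.37 for Mgp (-1.20 to 0.43) and 0.57 for Clu (-1.35 to 6.66), the latter on 21 and 1 UMIs. There the share of genes lower by the fold was 1.01% (105 of 10376), and in salt-sensitive capillary leaning cells it was 0.71% (58 of 8166).

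Tubule and stromal RNA also moved with the sets. The 24 tubule markers sought summed to 627 CPM in interferon-high against 1931 in other cells of the angiotensin II library. The sums were 1322 against 1788 in the salt-sensitive and 1024 against 3859 in the control table, and 985 against 1835 in control library 2 alone. Stromal and mural markers summed to 19.1 against 120, 32.2 against 71.0 and 28.1 against 91.4 CPM. Their part in the gene ratios was not tested beyond the following. Without cells that had a leukocyte UMI or more than 100 per 10000 tubule UMIs, the shares of interferon-high cells were 78.4%, 47.5% and 54.0%, and the angiotensin II genes lower by the fold numbered 218 in place of 491.

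The joined type I list went up with the level of the 4 rule genes, below the threshold as well as above it, but some neighbouring steps were alike. In cells of 2000 or more UMIs with none of the 4 genes, the joined type I list summed to 16211, 14741 and 11684 CPM in the angiotensin II, salt-sensitive and control tables. At levels above 0 and under 5 per 10000 it summed to 20841, 16925 and 15154 CPM, and from 5 to under 10 to 26475, 20197 and 21301 CPM. From 10 to under 20 it summed to 26641, 23147 and 27180 CPM, and from 20 up to 32661, 28995 and 27439 CPM. The GTPases went from 534 to 2058, from 552 to 1653 and from 416 to 1603 CPM between the lowest and highest steps. Capillary markers went from 2931 to 8066, 1215 to 5622 and 1320 to 8502 CPM over the same steps.

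Within capillary leaning cells the joined list still went from 23044 CPM (7 cells) to 32786 CPM in the angiotensin II library and from 20344 CPM (9 cells) to 29231 CPM in the salt-sensitive library. In these cells the capillary markers themselves went from 12969 to 9606 CPM in the angiotensin II library. The salt-sensitive values stood at 10543 CPM in the 9 cells of the first step and between 7395 and 8902 CPM in the others, with no order.

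**Figure D4:**
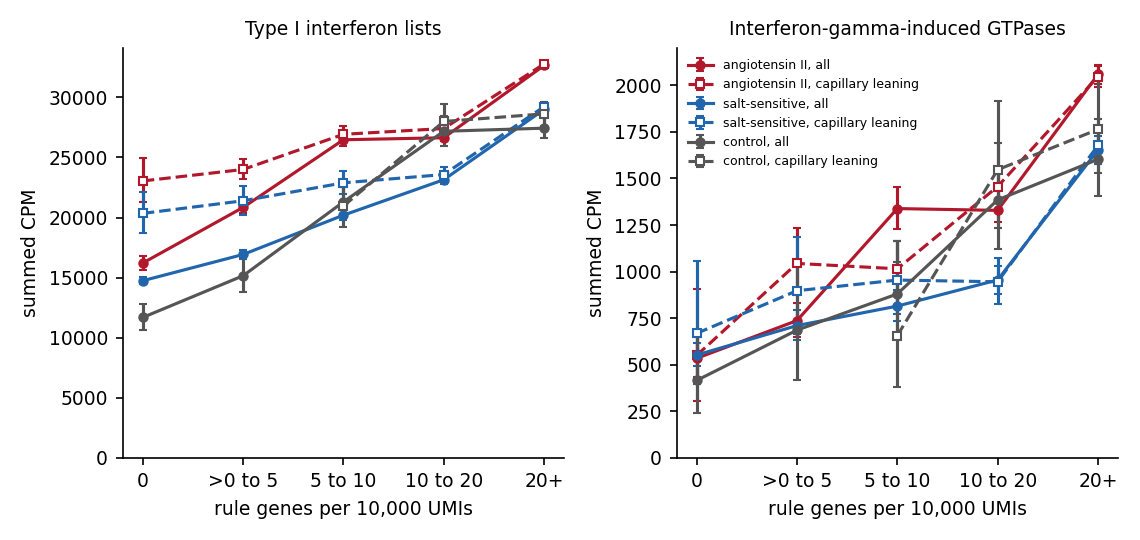
Summed CPM (y axis) of the joined type I interferon lists (left) and of the interferon-gamma-induced GTPases (right) by level of the 4 rule genes (x axis), in endothelial cells of 2000 or more UMIs, all (filled, solid) or capillary leaning (open, dashed); bars are exact Poisson 95% intervals. The type I sum is lowest in cells with none of the 4 genes and highest from 20 up in every table.

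Cells admitted by Rsad2 alone had lower sums of interferon-stimulated genes than those with a second rule gene. The split uses UMIs of the rule genes themselves, so this direction is in part set by it. The joined type I list summed to 24776 CPM in the 245 cells with Rsad2 alone and 32996 CPM in the 691 cells with Rsad2 and another rule gene in the angiotensin II library, against 22176 CPM in other endothelial cells. The sums were 22056, 30157 and 18277 CPM in the salt-sensitive library, and 22097, 31228 and 17520 CPM in the control table. The GTPases stood at 1167, 2083 and 951 CPM, at 933, 1799 and 693 CPM, and at 788, 2028 and 744 CPM. On both lists the cells with Rsad2 alone lay nearer to the other endothelial cells in all 3 tables. On capillary markers they lay nearer to the cells with a second rule gene, at 7796, 8353 and 5473 CPM, at 5388, 5143 and 2479 CPM, and at 9329, 8304 and 3658 CPM.

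Between the hypertension libraries, few type I interferon-stimulated genes differed by the fold in interferon-high cells. Both sets had to pass the same interferon rule, so like levels are in part set by it. The comparison is of 1 library with 1 library and not of the models as such, and the median depths were 4915 and 2453.5 UMIs. The joined list had a median log2 ratio of 0.11 for angiotensin II over salt-sensitive cells, with 0 of 108 members past the fold upward and 1 downward. Over all 10979 genes the median was -0.00, and 59 (0.537%) were higher and 247 (2.25%) lower by the fold. In other endothelial cells, of 10647 genes, 82 (0.77%) were higher and 107 (1%) lower. The GTPases had medians of 0.40 in interferon-high and 0.45 in other cells, MHC class I genes 0.44 and 0.47, and MHC class II genes 0.77 and 0.66. Among capillary leaning interferon-high cells these medians were 0.20, 0.34 and 0.67. Of all interferon-high cells, 73.6% and 53.1% were capillary leaning in the same order of libraries.

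Of the genes with the widest library difference upward, Cd74 had 470 CPM in interferon-high cells of the angiotensin II library and 191 in those of the salt-sensitive one (log2 ratio 1.28, 1.14 to 1.46). In the other endothelial cells it stood at 213 against 97.0 (1.09, 0.85 to 1.42). Igfbp3, a capillary marker that binds insulin-like growth factors, stood at 1808 against 805 CPM (1.16), and at 1358 against 467 in other cells (1.53). Chst2, a sulfotransferase that makes selectin ligands, stood at 130 against 47.8 CPM (1.36), and H2-T22, a nonclassical class I molecule, at 210 against 90.4 CPM (1.17). The remaining ones were C430014B12Rik, an uncharacterised transcript, Cd151, a tetraspanin, Enho, which encodes a secreted peptide, and Zfp518b, a zinc-finger protein with 23 against 0 UMIs. Among capillary leaning interferon-high cells Chst2 (0.97), Enho (0.98) and Igfbp3 (0.79) were below the fold, while Cd74 had 1.22, Cd151 1.17 and H2-T22 1.14.

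Of those lower in the angiotensin II library, Epha6, an ephrin receptor, stood at 7.26 against 120 CPM (log2 ratio -3.35) in interferon-high cells and at 307 against 438 CPM in other cells (-0.51). Calca, which encodes calcitonin gene-related peptide, stood at 20.9 against 179 CPM (-2.83), and at 25.8 against 155 in other cells (-2.38). Vwf stood at 1.54 against 24.9 CPM (-2.20), and at 34.4 against 159 in other cells (-2.06). Cntnap5a, Cndp1, Ptn, Eif3j2 and Hnf1aos1, the last annotated as antisense, completed the 8, with log2 ratios from -1.77 to -2.85. Tubule markers moved with these genes: 19 of 20 measured were lower in the angiotensin II library in interferon-high cells (median -0.80, 8 past the fold). The medians were -0.99 in capillary leaning interferon-high cells and 0.17 in other endothelial cells. Medullary leaning cells were 1.70% of angiotensin II and 8.99% of salt-sensitive interferon-high cells. Medullary markers had median log2 ratios of -0.89 in interferon-high and -0.03 in other cells. Among capillary leaning interferon-high cells Epha6, Calca, Vwf and Ptn fell short of 20 UMIs. There Cntnap5a, Cndp1, Eif3j2 and Hnf1aos1 had log2 ratios of -2.35, -2.22, -2.34 and -2.75. The parts of tubule RNA and vessel makeup in the lower genes were not tested. Among capillary leaning interferon-high cells 93 genes (0.891%) were higher and 170 (1.63%) lower.

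**Figure D5:**
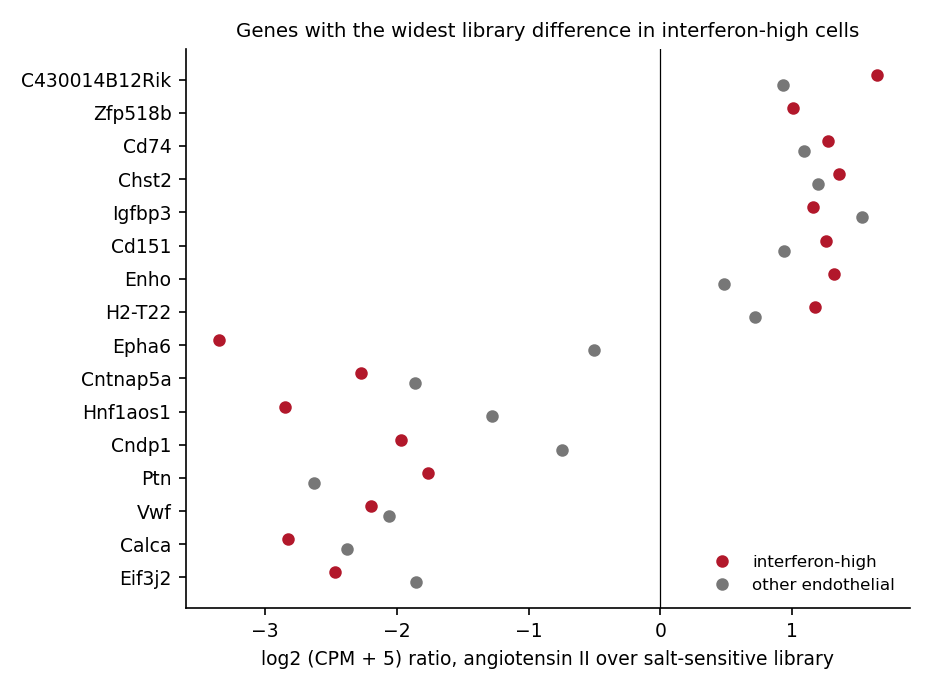
Log2 ratio of CPM + 5 of the angiotensin II over the salt-sensitive library (x axis) for the 16 genes with the widest library difference in interferon-high cells (y axis), in interferon-high (red) and other endothelial cells (grey). Each gene with a value in both sets differs in the same direction in them; Epha6 is at -3.35 in interferon-high and -0.51 in other cells, and Zfp518b has no value in other cells.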

How the data were processed

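Single cells from mouse kidney gave 4 droplet RNA libraries. The values the authors deposited are raw UMI counts, whole numbers for each gene in each cell, in 3 library tables and 1 joined hypertension table. Per the submitters' processing notes, the tools were Seurat 4.1 and Cell Ranger 7.0.0 and the build was mm10, with no step named. No deposited column was left unused, and the joined table served only as an alternative. UMIs were summed over cells and scaled to CPM of the table total, with Python 3.11.15, NumPy 2.4.6 and SciPy 1.17.1. Ratios carry exact conditional binomial, shares exact binomial (Clopper-Pearson) and sums exact Poisson 95% intervals, checked on simulated data. Interval and floor (3 counts for a count of 0) cover counting error only. No p-value is given, since each group was 1 library. No doublet caller was run, and leaving out cells with leukocyte or high tubule markers was an alternative. Named genes were those past the fold in both hypertension libraries with intervals off 0, the first 20 upward and 10 downward, and the 8 highest and 8 lowest by the interval bound nearest 0 between libraries. Other list members were named for their role. Positions are from GENCODE M21 (GRCm38). Members, lists and rules were chosen with earlier results of these data known. The values of 1 list member are not reported here.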

Additional observations from a re-analysis of the deposited data

Results flagged for a closer look

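Of 229 list genes measured in all 3 tables, 2 had ratios in opposite directions in the hypertension and control tables, with intervals off 0; the difference itself was not tested. Edn1, which encodes the vasoconstrictor endothelin-1, had log2 ratios of -2.02 (41.6 against 183 CPM) in the angiotensin II and -0.996 (120 against 243 CPM) in the salt-sensitive library. In the control table it had 1.61 (0.42 to 3.30), on 26 UMIs in interferon-high and 6 in other cells. Among capillary leaning cells Edn1 had -0.69 and -0.76 in the hypertension libraries. Cd36, a fatty acid transporter, had log2 ratios of 0.69 and 0.77 in the angiotensin II and salt-sensitive libraries and -1.13 in control cells, and 0.30, -0.07 and -0.95 among capillary leaning cells.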

How the results depend on the processing

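No paired analysis was possible because each group was 1 library. The Rsad2, capillary leaning between-library and thinned Rsad2 alternatives were chosen after seeing the data. Asking for 8 UMIs and 20 per 10000 of the 4 genes gave shares of 53.1%, 22.6% and 24.8% in the angiotensin II, salt-sensitive and control tables. Leaving Rsad2 out gave 21.3%, 11.6% and 8.28%, and 28.6%, 20.5% and 20.5% when thinned to 2000 UMIs as well. Thinning alone gave 81.2%, 64.7% and 70.9% at 2000 and 84.6%, 40.3% and 66.7% (2 of 3 cells) at 4000 UMIs. A gate of 6 UMIs and 24 per 10000 gave 82.2% and 51.5% in the hypertension libraries, and without control library 2 the control share was 15.8%. Counts of genes past the fold moved as follows, in the order of the settings named. Angiotensin II genes higher numbered 17 with the stricter rule, 183 with 1 CPM added, 96 in cells of 4000 or more UMIs and 253 in capillary leaning cells. Those lower numbered 186, 771, 214 and 105 there, 201 with the stricter gate, 758 as a mean over cells, 218 without leukocyte or tubule marker cells and 74 without Rsad2. Salt-sensitive genes higher numbered 114 with 1 CPM added, 165 in deep and 128 in capillary leaning cells, and those lower 453 and 58 with 1 CPM added and in capillary leaning cells. Control genes higher numbered 101 with the stricter rule and 815 with no UMI minimum. Those lower numbered 159 with the stricter gate, 2363 with no minimum, 128 in capillary leaning cells, 177 without marker cells, 174 without control library 1 and 806 without Rsad2. Between libraries, genes higher numbered 101 with the stricter rule, 155 with 1 CPM added, 554 in deep cells, 265 without Rsad2 and 93 in capillary leaning cells, and those lower 465 with 1 CPM added. Signs turned for Clu in the angiotensin II (0.57) and Chchd10 in the salt-sensitive library (-0.013) among capillary leaning cells, for Nav3 in the salt-sensitive library without Rsad2 (-0.48) and for Ifi47 in the control table with the stricter rule (-0.089); the cause was not tested. These 4 were past the fold at first; counting smaller ratios too, 3 genes and 15 list medians turned sign without Rsad2, 2 and 5 with the stricter rule, and 2 and 12 among capillary leaning cells. Without Rsad2, 38 gene ratios moved by more than their counting error and 44 did not. Control gene counts in cells of 4000 or more UMIs and without control library 2 were not run, as too few cells were left. Control depth limits single genes there: 4194 genes reached 20 UMIs, against 11267 and 10953.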
